A study of Homo sapiens with 6 samples.

Results

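The genes encoding the proteasome were examined in the transcriptome of HT29 cells, an established human colorectal adenocarcinoma line, kept for 48 h in control medium (untreated), in medium without histidine (Hdepl) or in medium without tryptophan (Wdepl). Members were chosen by name alone, as protein-coding genes whose symbol is PSM, a letter from A to G and a number, and this rule found 48 of the 60676 listed genes, of which 19892 are protein-coding. They comprised 7 genes of the alpha ring, 7 of the constitutive beta ring, 3 inducible beta subunits, 2 tissue-restricted core subunits, 6 ATPases and 11 non-ATPase subunits of the regulatory particle, 3 chaperones of the regulatory particle, 4 activators, 1 inhibitor and 4 chaperones of the core. There were 2 libraries per condition, 6 in all, from wild-type cells without any engineered allele. The histidine-free medium was made from RPMI-1640 powder and the tryptophan-free medium from DMEM F-12, each with dialyzed serum. The RNA-seq methods name only a control medium. For proteomics under these depletions the study used complete RPMI 1640 as control, and its HT29 stocks grew in DMEM. The base of the untreated medium thus remains unclear, and any influence of it would be part of each difference between depleted and untreated cells.

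The proteasome degrades proteins that carry ubiquitin chains. Its barrel-shaped core consists of outer alpha rings, which gate entry, and inner beta rings, of which PSMB5, PSMB6 and PSMB7 hold the proteolytic sites. In cells exposed to interferon, and constitutively in leukocytes, the inducible subunits PSMB8, PSMB9 and PSMB10 take the places of PSMB5, PSMB6 and PSMB7 in newly built cores, giving the immunoproteasome, which is known for producing peptides for presentation by MHC class I. The core is capped by the regulatory particle, whose ATPases unfold substrates, or by activators of the PSME family.

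The libraries held 46390819 to 64388876 reads on genes. Chi-square per degree of freedom between replicates was 1.85 to 8.77, above that of counting noise, and the median difference between replicates over 46 members was 1.95% to 4.0% of their mean. No source says that replicates came from separate cultures, so the p-values measure the spread between these libraries, which may be technical. The 10 colon epithelial markers summed to between 394766 and 420452 normalized counts in untreated, 565961 and 596965 in Hdepl and 572472 and 575301 in Wdepl libraries. Of these, 5 were called higher and 5 lower in Hdepl, and 6 and 2 in Wdepl. KRT20, an intestinal keratin, rose in both (log2 1.74 ± 0.05 and 2.38 ± 0.05). EPCAM had 26653 and 28129 normalized counts in untreated, 30628 and 31026 in Hdepl and 26636 and 26253 in Wdepl libraries. CDX1 was listed at 0 in both Hdepl libraries. Of 10 leukocyte markers, 5 had at most 3 reads in every library, PTPRC among them, and CD3D, MS4A1 and NCAM1 were at 0. The leukocyte list summed to between 258 and 285 normalized counts in untreated, 245 and 268 in Hdepl, and 460 and 475 in Wdepl libraries, and CD14 accounted for 379.9 and 367 of the latter (log2 1.73 ± 0.12 against untreated), whereas ITGAM fell in Wdepl (log2 -3.18 ± 0.33). In Hdepl, 2 leukocyte markers were called higher and 1 lower, with CSF1R at log2 2.45 ± 0.36 and CD14 at log2 -0.96 ± 0.19. The part of these markers in the Hdepl values below was not tested. The fibroblast list of 6 genes summed to at most 76.5.

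Levels in the 6 libraries are given below as normalized counts, that is reads divided by size factors computed over all 6 libraries together. Changes are log2 fold changes ± SE from limma on log2(normalized count + 1), fitted over all genes within the table of each depletion, and a gene was called at an adjusted p under 0.05. Of the 48 members, 46 passed the limit of a mean of 10 normalized counts. The others were the tissue-restricted genes, with PSMA8, a testis form of an alpha subunit, at 0 reads in all libraries and PSMB11, the thymic beta subunit, at 1 read in 1 Hdepl library. Together the 48 members summed to 268548 and 278608 normalized counts in the untreated libraries, 361741 and 365888 in Hdepl and 267658 and 266620.0 in Wdepl.

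After histidine depletion, 26 of the 46 tested members rose and 12 fell (82.6% called, against 77.3% of all genes tested, of which 39.1% were called higher and 38.2% lower). Quantile normalization gave 24 and 17. Their median log2 fold change was 0.28, beside 0.01 over all genes. After tryptophan depletion, 17 rose and 14 fell (67.4% called, against 70.8% of all genes, 36.1% higher and 34.8% lower), or 16 and 20 under quantile normalization, with a median of 0.04 beside 0.01. When a log2 fold change of at least 0.5 in size was also required, 25 members remained after histidine depletion (54.3%, against 57.5% of all genes) and 7 after tryptophan depletion (15.2%, against 42.4%). The changes in Wdepl cells were thus mostly small, with a median size of 0.26 on the log2 scale, while that in Hdepl cells was 0.59. In RNA from whole cultures, a change in the share of expressing cells cannot be told apart from a change in RNA per cell.

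**Figure D1:**
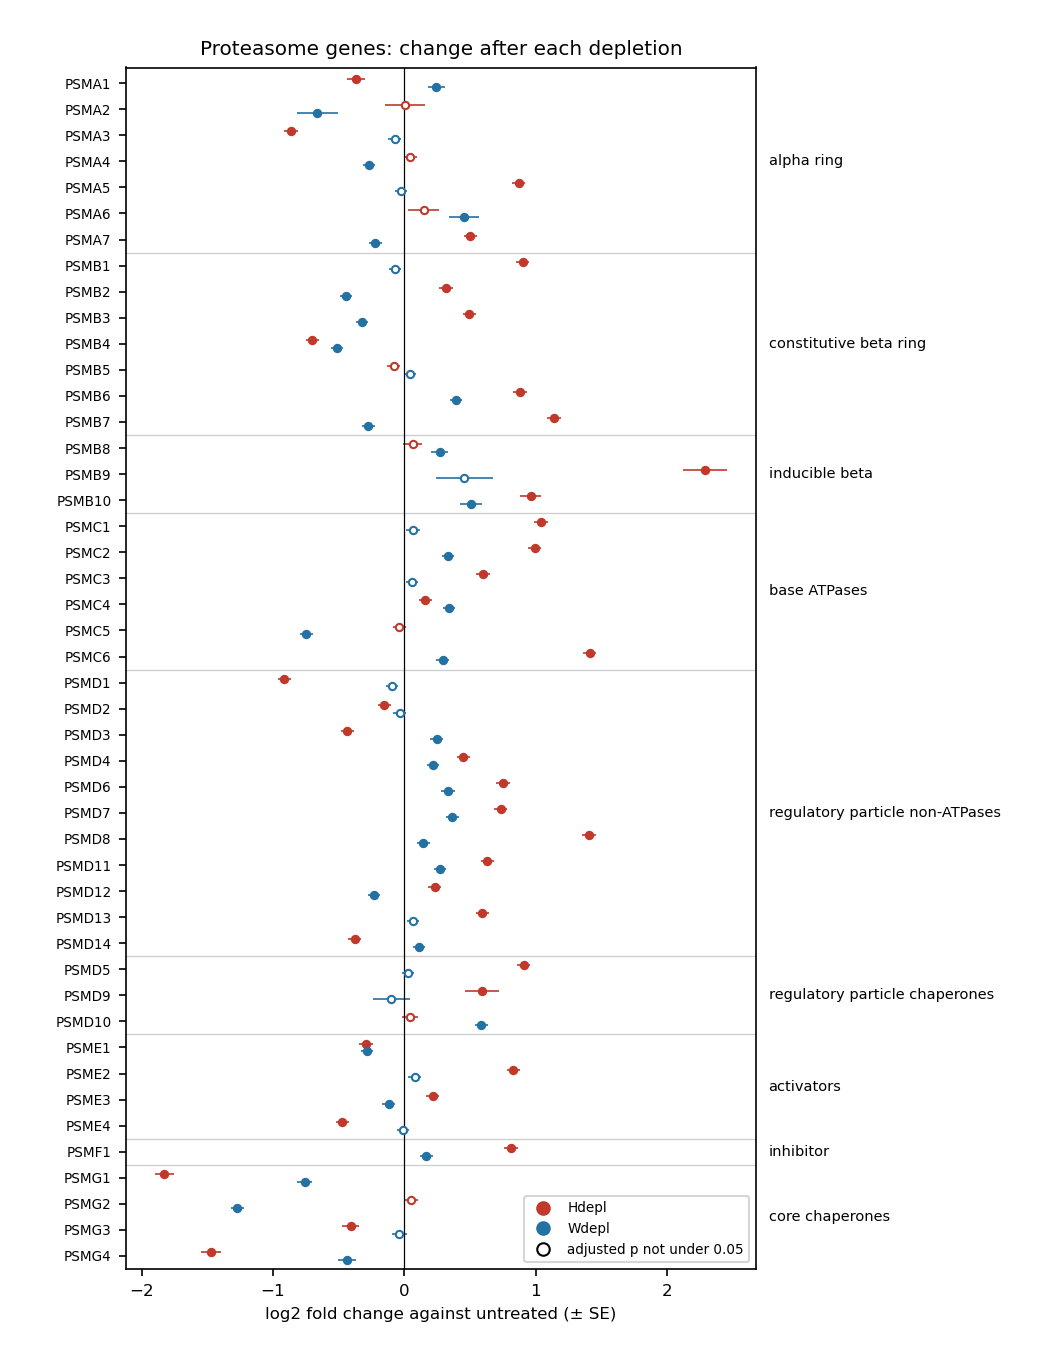
Log2 fold change (± SE, x axis) against untreated cells of the 46 tested proteasome genes (y axis, grouped by role) after histidine (red) and tryptophan depletion (blue), 2 libraries per group. Filled points passed an adjusted p of 0.05 in limma. PSMB9 lies farthest to the right in Hdepl (2.29), PSMG1 farthest to the left (-1.83), and PSMG2 is the lowest point in Wdepl (-1.27).

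PSMB9, the inducible counterpart of PSMB6, changed most among the members after histidine depletion, while PSMB8, encoded next to it on chromosome 6 (PSMB8 at chr6:32840717-32844679, PSMB9 at chr6:32844136-32859851, GRCh38), did not pass the test. PSMB9 had 44.8 and 52.7 normalized counts in the untreated libraries, 213 and 272 in Hdepl and 66.2 and 68.7 in Wdepl. The Hdepl libraries lay far above all others, with a 4.90-fold rise (log2 2.29 ± 0.17, adjusted p = 6.4e-12). Both Wdepl libraries lay above the untreated ones, but the difference missed the threshold (log2 0.46 ± 0.22, adjusted p = 0.0528) and passed it in 4 of 14 alternative settings. At these counts PSMB9 was among the least abundant of the tested members.

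PSMB8, the counterpart of PSMB5, had 794 and 801 normalized counts in untreated, 789.7 and 867 in Hdepl and 965 and 966 in Wdepl libraries. The Hdepl values overlapped the untreated ones (log2 0.06 ± 0.07, adjusted p = 0.433), whereas both Wdepl libraries were higher, by a small amount (log2 0.27 ± 0.07, adjusted p = 1.8e-04). PSMB10, the counterpart of PSMB7 (chr16:67934506-67936864), had 425 and 408, 784 and 831 and 619 and 571 in the same order. It rose under both depletions, by log2 0.96 ± 0.08 in Hdepl (adjusted p = 6.2e-11) and 0.51 ± 0.08 in Wdepl (adjusted p = 2.4e-08). In the direct comparison PSMB9 and PSMB10 were higher in Hdepl than in Wdepl cells (log2 1.82 ± 0.17 and 0.44 ± 0.07) and PSMB8 was lower (log2 -0.22 ± 0.06, adjusted p = 0.00423). Of the coding bases of PSMB10, 58.5% lie also in a second annotated gene of the same strand, and of those of PSMB8 14% lie opposite other genes, so that their counts depend on how shared reads were assigned. The sum of leukocyte markers was higher in Wdepl than in untreated cells, with CD14 higher and ITGAM lower as given above, and its part in the PSMB8 and PSMB10 values was not tested.

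The constitutive catalytic subunits moved apart from each other. PSMB5 had 5093 and 5323 normalized counts in untreated, 4809 and 4977 in Hdepl and 5346 and 5457 in Wdepl libraries, and was not called in either comparison with untreated cells (log2 -0.08 ± 0.05 and 0.05 ± 0.05). PSMB6 had 3572 and 3724, 6507 and 6839.5 and 4892 and 4750.5, with all depleted libraries above the untreated ones (log2 0.88 ± 0.05 in Hdepl and 0.39 ± 0.05 in Wdepl). PSMB7 had 7581 and 8035, 17291 and 16923 and 6463 and 6518, and rose 2.21-fold in Hdepl (log2 1.14 ± 0.05, adjusted p = 4.7e-16) while falling in Wdepl (log2 -0.27 ± 0.05, adjusted p = 8.5e-08). The difference between the depletions was log2 1.40 ± 0.04, the largest among the genes of the constitutive beta ring.

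**Figure D2:**
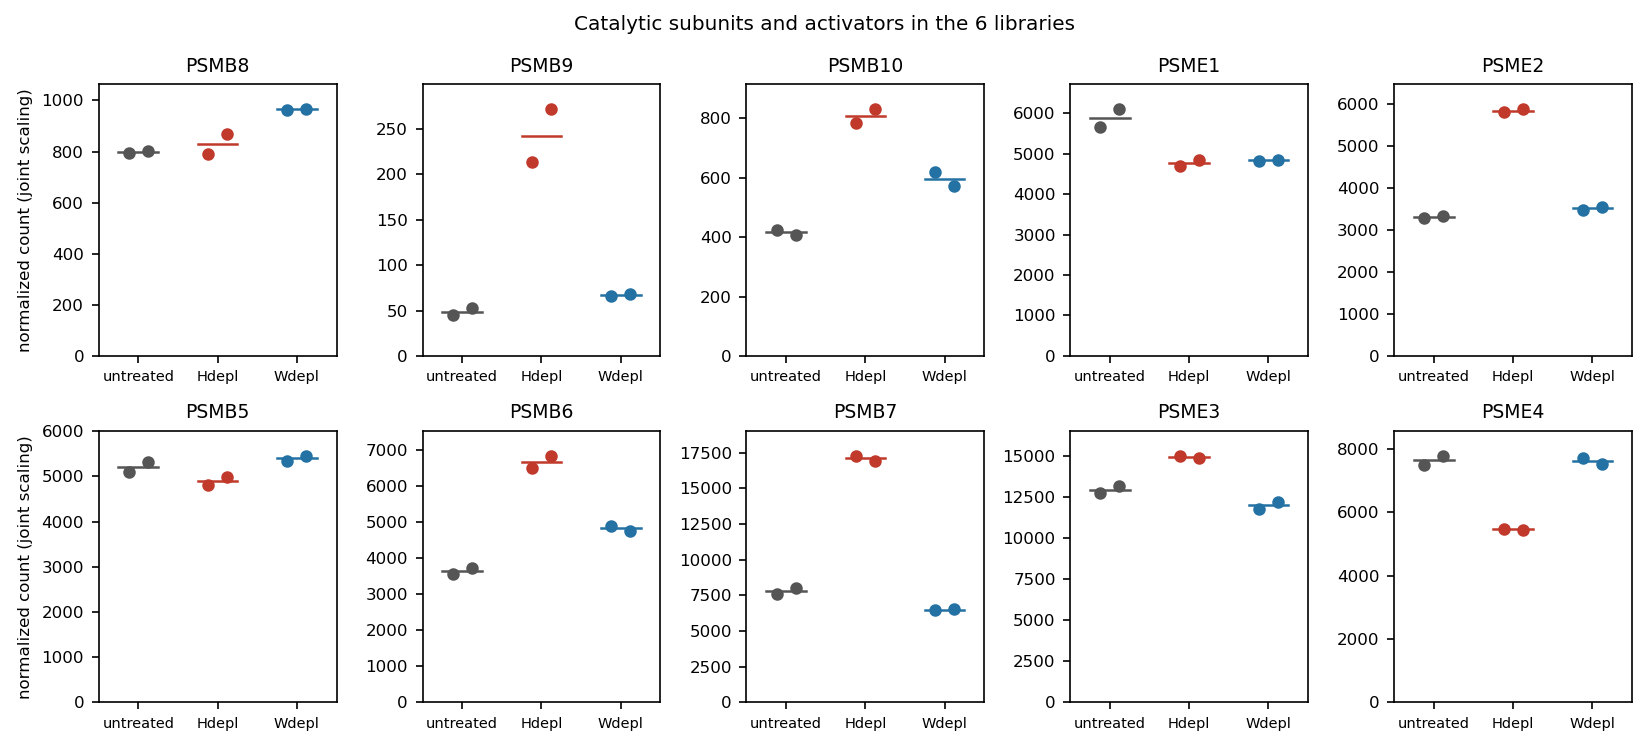
Normalized counts (y axis, from 0, own scale per panel) of catalytic subunits and activators in the untreated, Hdepl and Wdepl libraries (x axis); points are libraries and bars group means. PSMB9, PSMB10, PSMB6, PSMB7 and PSME2 are higher in both Hdepl libraries than in both untreated ones, while PSMB8 and PSMB5 differ little.

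Levels of different genes were compared per kilobase of exon, as the union of annotated exons. The ratio of PSMB9 to PSMB6 was 0.00544 and 0.00614 in the untreated libraries, 0.0142 and 0.0172 in Hdepl and 0.00586 and 0.00627 in Wdepl. It was higher in both Hdepl libraries than in the others, although the PSMB9 level remained far under that of PSMB6 in all of them. The ratio of PSMB10 to PSMB7 was 0.0617 and 0.0558 in untreated, 0.0499 and 0.054 in Hdepl and 0.105 and 0.0964 in Wdepl libraries, so that in Hdepl the rise of PSMB7 left this ratio under the untreated values, and in Wdepl it was above them. The ratio of PSMB8 to PSMB5 was 0.0693 and 0.067, 0.0731 and 0.0775 and 0.0803 and 0.0788 in the same order. Summed over the catalytic genes, PSMB8 to PSMB10 made up 4.65 ± 0.194% (SD, n = 2) in untreated, 4.45 ± 0.233% in Hdepl and 5.97 ± 0.17% in Wdepl cells. With this length the inducible share overlapped between Hdepl and untreated libraries, and it was higher in both Wdepl libraries. When the longest coding transcript was taken as the length, the mean share was 6.02%, 5.43% and 7.64%, and the overlap was lost, with 5.19% and 5.66% in the Hdepl libraries under 6.18% and 5.87% in the untreated ones. Ratios and shares are given as descriptions, and no test was run on them. Those that include PSMB10 are less certain, because most of its coding bases lie also in a second annotated gene, as given above.

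The translated coding sequences of the inducible subunits share 62.8% of aligned residues with the constitutive partner for PSMB8 and PSMB5, 59.8% for PSMB9 and PSMB6 and 56.8% for PSMB10 and PSMB7. Sequence next to the start sites was searched for motifs in RefSeq windows from 250 bases before to 50 after the start (GRCh38.p14), in which 42 of 48 members have an entry. An interferon-stimulated response element (ISRE, GAAA, any 2 bases and GAAA, on either strand) was present in windows of 7 members, PSMA4, PSMB4, PSMB8, PSMB10, PSME1, PSME2 and PSMG4, that is in 13.7% of the 51 member windows and 3.57% of all 35116 windows. In 5 of them, chosen for display after they were seen to share it, the match was the same 10 bases, GAAAGCGAAA or its reverse complement, found in 0.0997% of all windows. PSMB8 has 2 windows. Its match lies at the inner start (chr6:32843998-32844297), and the window of the outer start (chr6:32844630-32844929) has none. The stretches of these 5 genes run from 50 bases before to 30 after the start and are shown 5′ to 3′ on the gene's strand with the motif in capitals, because they set the inducible PSMB8 and PSMB10 and the activators PSME1 and PSME2 beside the core chaperone PSMG4:
PSMB8 (chr6:32844018-32844097, minus strand): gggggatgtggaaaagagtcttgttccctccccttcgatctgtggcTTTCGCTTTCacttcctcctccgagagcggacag
PSMB10 (chr16:67936821-67936900, minus strand): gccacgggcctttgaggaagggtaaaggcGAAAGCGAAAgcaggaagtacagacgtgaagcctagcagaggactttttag
PSME1 (chr14:24136144-24136223, plus strand): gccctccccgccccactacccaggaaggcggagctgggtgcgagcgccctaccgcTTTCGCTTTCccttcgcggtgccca
PSME2 (chr14:24146581-24146660, minus strand): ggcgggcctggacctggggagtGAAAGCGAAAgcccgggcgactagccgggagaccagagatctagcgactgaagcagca
PSMG4 (chr6:3258897-3258976, plus strand): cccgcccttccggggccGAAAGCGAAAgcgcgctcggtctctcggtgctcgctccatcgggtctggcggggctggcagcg

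PSMB9, the member with the largest rise in Hdepl cells, had no ISRE in its RefSeq window. For PSMB9 the search did not reach beyond that window. TAP1, encoded beside PSMB9, has GAAAGCGAAA or its reverse complement in a window of its own. The PSMB9 window is shown in full with an antioxidant response element (TGACNNNGC, here on the reverse strand) and a CCAAT box in capitals:
PSMB9 (chr6:32853942-32854241, plus strand): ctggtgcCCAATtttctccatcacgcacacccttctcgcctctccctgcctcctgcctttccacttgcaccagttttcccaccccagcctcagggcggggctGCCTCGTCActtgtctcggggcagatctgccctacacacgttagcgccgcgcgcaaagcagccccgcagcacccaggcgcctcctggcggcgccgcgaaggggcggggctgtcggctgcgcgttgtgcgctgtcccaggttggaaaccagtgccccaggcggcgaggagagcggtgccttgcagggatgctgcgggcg

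The genes with these letters did not move alike. PSMB10 and PSME2 rose in Hdepl cells, PSMB4, PSME1 and PSMG4 fell, and PSMA4 and PSMB8 were not called, with a median log2 fold change over the 7 of 0.04 beside 0.23 over the 33 tested members whose windows lack the motif. In Wdepl cells PSMB8 and PSMB10 rose and PSMA4, PSMB4, PSME1 and PSMG4 fell, with medians of -0.27 and 0.06. The antioxidant response element was present in windows of 15 members (29.4% of member windows and 13.3% of all), the CCAAT box in 20 (39.2% and 34.6%), a gamma-activated sequence (TTCNNNGAA) in 8 (15.7% and 7.66%), and a kappaB-like motif (GGG, any 5 bases and CC) in 31 (64.7% and 58.7%). Both strands were searched, and matches of the kappaB-like motif overlapped 2 of the antioxidant and 1 of the gamma-activated matches in member windows. The median GC content of the windows was 62.0% for members and 58.7% for all.

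The activators open the gate of the core without ATP. PSME1 and PSME2 form a joint ring that is known to rise with interferon, PSME3 forms the nuclear ring and PSME4 is a large nuclear activator. PSME2 had 3299 and 3328 normalized counts in untreated, 5813 and 5882 in Hdepl and 3477 and 3559 in Wdepl libraries, a rise in Hdepl alone among the calls (log2 0.83 ± 0.05, adjusted p = 1.5e-13, and 0.08 ± 0.05 in Wdepl, adjusted p = 0.141), and the direct difference passed the test (log2 0.73 ± 0.04). Its neighbour PSME1 (chr14:24136163-24138967, PSME2 at chr14:24143362-24147570) had 5653 and 6103, 4686 and 4844 and 4833 and 4854, so that this partner fell under both depletions (log2 -0.29 ± 0.05 in Hdepl and -0.29 ± 0.05 in Wdepl). The direct difference of PSME1 between the depletions was log2 -0.02 ± 0.04 (adjusted p = 0.634), the only direct difference among the 46 members that did not pass.

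PSME4 had 7493 and 7794 normalized counts in untreated, 5488 and 5446 in Hdepl and 7717 and 7544 in Wdepl libraries and was lower in Hdepl cells only (log2 -0.47 ± 0.05, adjusted p = 5.1e-09, and -0.01 ± 0.05 in Wdepl, direct difference -0.48 ± 0.04). PSME3 had 12759.7 and 13208, 15048 and 14897 and 11824 and 12194, a small rise in Hdepl (log2 0.21 ± 0.05) and a small fall in Wdepl (log2 -0.12 ± 0.05), and quantile normalization turned the sign of the rise. Per kilobase of exon, the ratio of PSME2 to PSME4 was 1.28 and 1.24 in untreated, 3.07 and 3.13 in Hdepl and 1.31 and 1.37 in Wdepl libraries, and that of PSME1 to PSME4 was 4.41 and 4.58, 5.0 and 5.21 and 3.66 and 3.76. The former rose far more in Hdepl than the latter. The annotation holds 6 pseudogenes named for PSME2, and reads from near-identical copies could have been assigned to either. PSMF1, the inhibitor that binds the core and competes with activators, had 7558 and 7878, 13271 and 13677 and 8727 and 8704 normalized counts, and rose in Hdepl (log2 0.81 ± 0.05) and slightly in Wdepl (log2 0.17 ± 0.05).

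In the constitutive core, genes were called in both directions. In Hdepl cells 7 of 14 genes rose and 3 fell, and in Wdepl cells 3 rose and 7 fell, so that 71.4% were called in each, beside 77.3% and 70.8% of all genes tested. In the alpha ring, PSMA5 had 7209 and 7464 normalized counts in untreated, 13413 and 13242 in Hdepl and 7249.8 and 7247 in Wdepl libraries, the largest rise of that ring in Hdepl (log2 0.87 ± 0.05), while PSMA3 had 4187 and 4159, 2256 and 2302 and 3974 and 3998, its largest fall (log2 -0.86 ± 0.05, adjusted p = 1.3e-13). Both genes were near their untreated level in Wdepl cells (log2 -0.02 ± 0.05 and -0.07 ± 0.05, neither called). PSMA7, the most abundant core gene per kilobase (9377 normalized counts per kilobase in untreated cells), rose in Hdepl (log2 0.50 ± 0.05) and fell in Wdepl (log2 -0.22 ± 0.05).

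PSMA2 had 183 and 128 normalized counts in untreated, 149 and 157 in Hdepl and 92.8 and 101 in Wdepl libraries, the largest fall of the alpha ring in Wdepl cells (log2 -0.66 ± 0.16, adjusted p = 8.1e-05). PSMA6 had 199 and 201, 209 and 232 and 286 and 266, its largest rise there (log2 0.45 ± 0.11, adjusted p = 2.1e-04). The untreated libraries of PSMA2 lay far apart, so the size of its fall in Wdepl depends on which of them is used. Of the coding bases of PSMA1, PSMA2, PSMA6 and PSMD9, 88.7%, 97.4%, 70.0% and 58.9% lie also in a second annotated gene of the same strand, and their levels are therefore uncertain. Without these 4 genes and PSMB10, 41 tested members remained. In Hdepl cells 24 were called higher and 11 lower (58.5% and 26.8%, against 39.1% and 38.2% of all genes). In Wdepl cells 14 were called higher and 13 lower (34.1% and 31.7%, against 36.1% and 34.8% of all genes).

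In the beta ring, PSMB1 had 9006 and 9572 normalized counts in untreated, 17035 and 17419 in Hdepl and 9047 and 8708 in Wdepl libraries and rose in Hdepl (log2 0.90 ± 0.05), as PSMB7 and PSMB6 did. PSMB4, a subunit without a proteolytic site, had 9440.3 and 9706, 5781 and 5909.6 and 6810.2 and 6664 and fell under both depletions (log2 -0.70 ± 0.05 in Hdepl and -0.51 ± 0.05 in Wdepl), the lowest change of the ring in each. PSMB2 and PSMB3 rose in Hdepl (log2 0.32 ± 0.05 and 0.50 ± 0.05) and fell in Wdepl (log2 -0.45 ± 0.05 and -0.32 ± 0.05). Under quantile normalization the Hdepl rise of PSMB2 was no longer called. Over the 11 core genes without shared coding bases, levels per kilobase spanned 7.33-fold from PSMA5 to PSMA7 in untreated cells, 18.0-fold from PSMA3 to PSMA7 in Hdepl and 6.40-fold from PSMA5 to PSMA7 in Wdepl, so that the subunits of the core were spread wider in Hdepl cells. The span in Hdepl was 10.1-fold, and 8.88-fold in untreated cells, when the longest coding transcript was taken as the length.

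Among the ATPases of the base, 5 of 6 rose in Hdepl cells and none fell, and in Wdepl cells 3 rose and 1 fell (all genes: 39.1% higher and 38.2% lower in Hdepl, 36.1% and 34.8% in Wdepl). PSMC6 had 3086 and 3188 normalized counts in untreated, 8465 and 8114 in Hdepl and 3895 and 3827 in Wdepl libraries. It rose 2.66-fold in Hdepl (log2 1.41 ± 0.05, adjusted p = 7.2e-18), with PSMD8 the largest rise among the PSM genes of the regulatory particle. PSMC5 had 5679 and 5915, 5575 and 5641 and 3521 and 3423, so that it was near its untreated level in Hdepl (log2 -0.04 ± 0.05, adjusted p = 0.488) and fell in Wdepl (log2 -0.75 ± 0.05, adjusted p = 1.8e-31), the only ATPase called lower there. PSMC4 had 7388 and 7589, 8242 and 8366 and 9562 and 9495, the largest rise of the ATPases in Wdepl (log2 0.34 ± 0.05) and the only ATPase higher in Wdepl than in Hdepl cells (log2 of Hdepl against Wdepl -0.20 ± 0.04). Its rise in Hdepl (log2 0.16 ± 0.05) turned into a fall under quantile normalization. PSMC1 rose in Hdepl (log2 1.04 ± 0.05) and has 13 pseudogenes of its name, and 47.8% of its coding bases lie opposite NRDE2, so that its counts are less certain.

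All 11 non-ATPase subunits of the regulatory particle were called in Hdepl cells, 7 higher and 4 lower, and in Wdepl cells 7 were higher and 1 lower, beside the 77.3% and 70.8% of all genes that were called in these comparisons. PSMD8, a lid subunit, had 13509.5 and 13643 normalized counts in untreated, 35180.3 and 36382 in Hdepl and 15080.2 and 15107 in Wdepl libraries, a 2.65-fold rise in Hdepl (log2 1.41 ± 0.05, adjusted p = 1.2e-17) against a small one in Wdepl (log2 0.15 ± 0.05). PSMD1, a scaffold subunit of the base, had 6678 and 6591, 3469 and 3528 and 6072 and 6417 and fell in Hdepl (log2 -0.91 ± 0.05, adjusted p = 1.9e-14). PSMD2, the other scaffold subunit, fell only slightly (log2 -0.15 ± 0.05).

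PSMD7, the partner of the deubiquitinase PSMD14, had 2727 and 2816 normalized counts in untreated, 4609 and 4549 in Hdepl and 3566 and 3606 in Wdepl libraries, the largest rise of the non-ATPases in Wdepl (log2 0.36 ± 0.05), with 28.2% of its coding bases opposite another gene. PSMD14, which removes the ubiquitin chain before degradation, had 5507 and 5863, 4350.3 and 4341 and 6259 and 6077 and fell in Hdepl (log2 -0.38 ± 0.05). Its small rise in Wdepl (log2 0.11 ± 0.05, adjusted p = 0.0292) held in 7 of 14 alternative settings. PSMD12 had 8224 and 8593, 9749 and 9891 and 7228 and 7142, the only non-ATPase subunit that fell in Wdepl (log2 -0.23 ± 0.05), and its rise in Hdepl (log2 0.23 ± 0.05) changed sign under quantile normalization. The ubiquitin receptor PSMD4 rose under both depletions (log2 0.45 ± 0.05 and 0.22 ± 0.05).

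Of the chaperones that assemble the base, PSMD5 and PSMD9 were called in Hdepl only and PSMD10 in Wdepl only. PSMD5 had 4639 and 4966 normalized counts in untreated, 9090.1 and 8825 in Hdepl and 4919 and 4924 in Wdepl libraries and rose in Hdepl (log2 0.91 ± 0.05). PSMD10 had 1932 and 2196, 2148 and 2064 and 3053 and 3174 and rose in Wdepl (log2 0.59 ± 0.05, adjusted p = 1.7e-20), the largest rise of any member in Wdepl cells, with log2 0.04 ± 0.06 in Hdepl. PSMD9 had 143 and 158, 216 and 236 and 139 and 144, a rise in Hdepl (log2 0.59 ± 0.13, adjusted p = 1.8e-04) and log2 -0.10 ± 0.14 in Wdepl, at low and uncertain counts as noted above. The direct difference between the depletions passed the test for each of them (log2 0.86 ± 0.04, -0.56 ± 0.06 and 0.67 ± 0.12).

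The chaperones of the core, which pair as PSMG1 with PSMG2 and PSMG3 with PSMG4 to build the alpha ring, held the largest falls of all members. No member of the group rose, and 3 of 4 fell in each depletion, where 38.2% and 34.8% of all genes fell. PSMG1 had 2318 and 2689 normalized counts in untreated, 658 and 739.7 in Hdepl and 1521 and 1445 in Wdepl libraries, a fall to 0.281 of the untreated level in Hdepl (log2 -1.83 ± 0.07, adjusted p = 4.6e-17) and a smaller one in Wdepl (log2 -0.76 ± 0.06). PSMG2 had 4389.5 and 4846, 4617 and 4869.7 and 1919.7 and 1917, with Hdepl values that overlapped the untreated ones (log2 0.05 ± 0.05, adjusted p = 0.422) and a fall to 0.414 of the untreated level in Wdepl (log2 -1.27 ± 0.05, adjusted p = 4.3e-52). Partners in a pair therefore differed: the direct difference, Hdepl against Wdepl, was log2 -1.09 ± 0.07 for PSMG1 and 1.30 ± 0.05 for PSMG2.

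In the other pair, PSMG4 had 989 and 1006 normalized counts in untreated, 367 and 346 in Hdepl and 774 and 711 in Wdepl libraries and fell in both (log2 -1.47 ± 0.08 in Hdepl and -0.43 ± 0.07 in Wdepl). PSMG3 had 1446 and 1333, 1011 and 1068 and 1354 and 1364 and fell in Hdepl only among the calls (log2 -0.41 ± 0.06, adjusted p = 4.2e-06, and -0.04 ± 0.06 in Wdepl). The gene POMP, which guides beta subunits onto the alpha ring and whose product is degraded in the finished core, went the other way in Hdepl cells. It had 8494 and 9101, 16244 and 16159 and 7427 and 7521, a rise in Hdepl (log2 0.89 ± 0.05) and a small fall in Wdepl (log2 -0.24 ± 0.05).

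**Figure D3:**
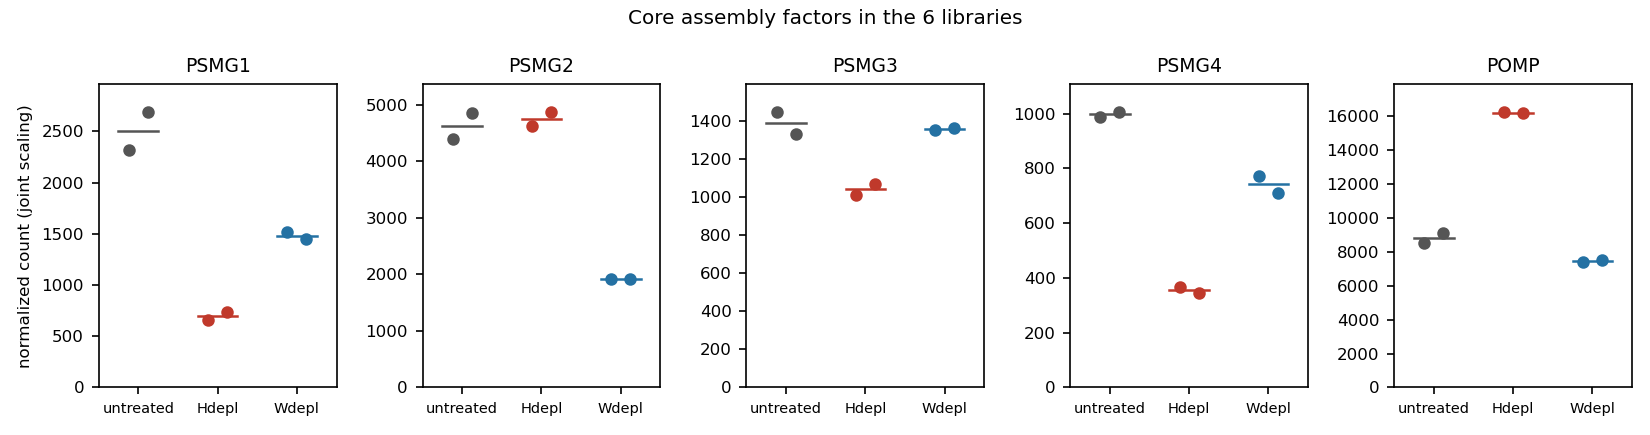
Normalized counts (y axis, from 0, own scale per panel) of the core assembly factors in the untreated, Hdepl and Wdepl libraries (x axis); points are libraries and bars group means. PSMG1 and PSMG4 are lowest in Hdepl, PSMG2 in Wdepl, and POMP is highest in Hdepl.

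Compared directly, 29 of the 46 tested members were higher in Hdepl than in Wdepl cells and 16 lower (97.8% called, against 76.7% of all genes, 38.7% higher and 38.0% lower), with a median of 0.42 beside 0.01 over all genes. With a log2 fold change of at least 0.5 in size, 28 remained (60.9%, against 56.7%). PSMB9 (1.82), PSMB7 (1.40), PSMG2 (1.30) and PSMD8 (1.25) were the members most in favour of Hdepl and PSMG1 (-1.09), PSMG4 (-1.06), PSMD1 (-0.84) and PSMA3 (-0.81) those most in favour of Wdepl, as log2 fold changes. Since both depletions were measured against the same untreated libraries, their changes against untreated cells are not independent of each other. The base media of the depletions also differed, so in the direct comparison the missing amino acid and the medium cannot be told apart.

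Other genes of the pathway were counted by lists of genes without a PSM symbol, chosen with earlier results known. Of all genes tested, 39.1% were higher and 38.2% lower in Hdepl, and 36.1% and 34.8% in Wdepl. Of 13 parts and partners of the proteasome, 7 rose and 6 fell in Hdepl cells and 6 and 2 in Wdepl cells. ZFAND2A, which associates with the proteasome under stress, had 400.0 and 442 normalized counts in untreated, 1389 and 1461 in Hdepl and 1864 and 1854 in Wdepl libraries and rose in both (log2 1.77 ± 0.07 and 2.13 ± 0.07). ADRM1, a ubiquitin receptor of the regulatory particle, had 3582 and 4014, 11382 and 11559 and 3915 and 3902 and rose in Hdepl (log2 1.61 ± 0.05) with log2 0.04 ± 0.05 in Wdepl. ZFAND5, a stress-related activator, rose in both (log2 1.32 ± 0.05 and 0.74 ± 0.05).

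Of 14 regulators of proteasome genes, 8 rose in each depletion, and 3 fell in Hdepl and 2 in Wdepl. NFE2L1, the transcription factor that drives proteasome genes when proteasome activity is short, had 12801 and 13333 normalized counts in untreated, 12233 and 12906 in Hdepl and 41573 and 41568 in Wdepl libraries. It rose in Wdepl cells (log2 1.66 ± 0.05) and was not called in Hdepl cells (log2 -0.05 ± 0.05, adjusted p = 0.405), with a direct difference of log2 -1.73 ± 0.04. Its partners MAFK and MAFG rose in Hdepl (log2 1.81 ± 0.06 and 1.07 ± 0.05), and SYVN1, a ubiquitin ligase of the endoplasmic reticulum, in Wdepl (log2 1.03 ± 0.05). The changes of these genes in the other depletion are not given here. For MAFK the direct difference, Hdepl against Wdepl, was log2 1.36 ± 0.05.

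Of 11 ubiquitin genes and shuttle factors, 9 rose and 1 fell in Hdepl cells and 7 and 3 in Wdepl cells. SQSTM1, the receptor that carries ubiquitinated proteins to autophagy, had 19426 and 20579 normalized counts in untreated, 249843 and 252426 in Hdepl and 59254 and 59743 in Wdepl libraries (log2 3.66 ± 0.06 and 1.57 ± 0.05). RAD23B, which delivers substrates to the proteasome, rose in Hdepl by log2 1.45 ± 0.05, and UBB, a polyubiquitin gene, fell in Wdepl by log2 -0.81 ± 0.05. Their changes in the other depletion are not given here. For UBB the direct difference, Hdepl against Wdepl, was log2 0.96 ± 0.04.

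Of 18 genes of peptide loading and its regulators, 18 rose in Hdepl cells, and 16 rose and 1 fell in Wdepl cells, with median log2 fold changes of 1.37 and 0.76 (all genes: 39.1% and 36.1% higher, with medians of 0.01 in both). NLRC5, the transactivator of MHC class I genes, had 156 and 166 normalized counts in untreated, 1085 and 994 in Hdepl and 494 and 541 in Wdepl libraries (log2 2.69 ± 0.09 and 1.67 ± 0.10). HLA-B had 185 and 196, 1103 and 1103 and 487 and 564 (log2 2.54 ± 0.09 and 1.45 ± 0.10), a count that depends on how reads shared with other HLA genes were assigned. TAP1, the peptide transporter encoded beside PSMB9 and named here because of that position, had 231 and 205, 1041 and 1108 and 539.9 and 663 (log2 2.31 ± 0.09 and 1.45 ± 0.10), and it is among the genes with GAAAGCGAAA or its reverse complement in their windows. IRF1, a transcription factor of the interferon response, rose in both (log2 1.90 ± 0.05 and 0.46 ± 0.06).

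**Figure D4:**
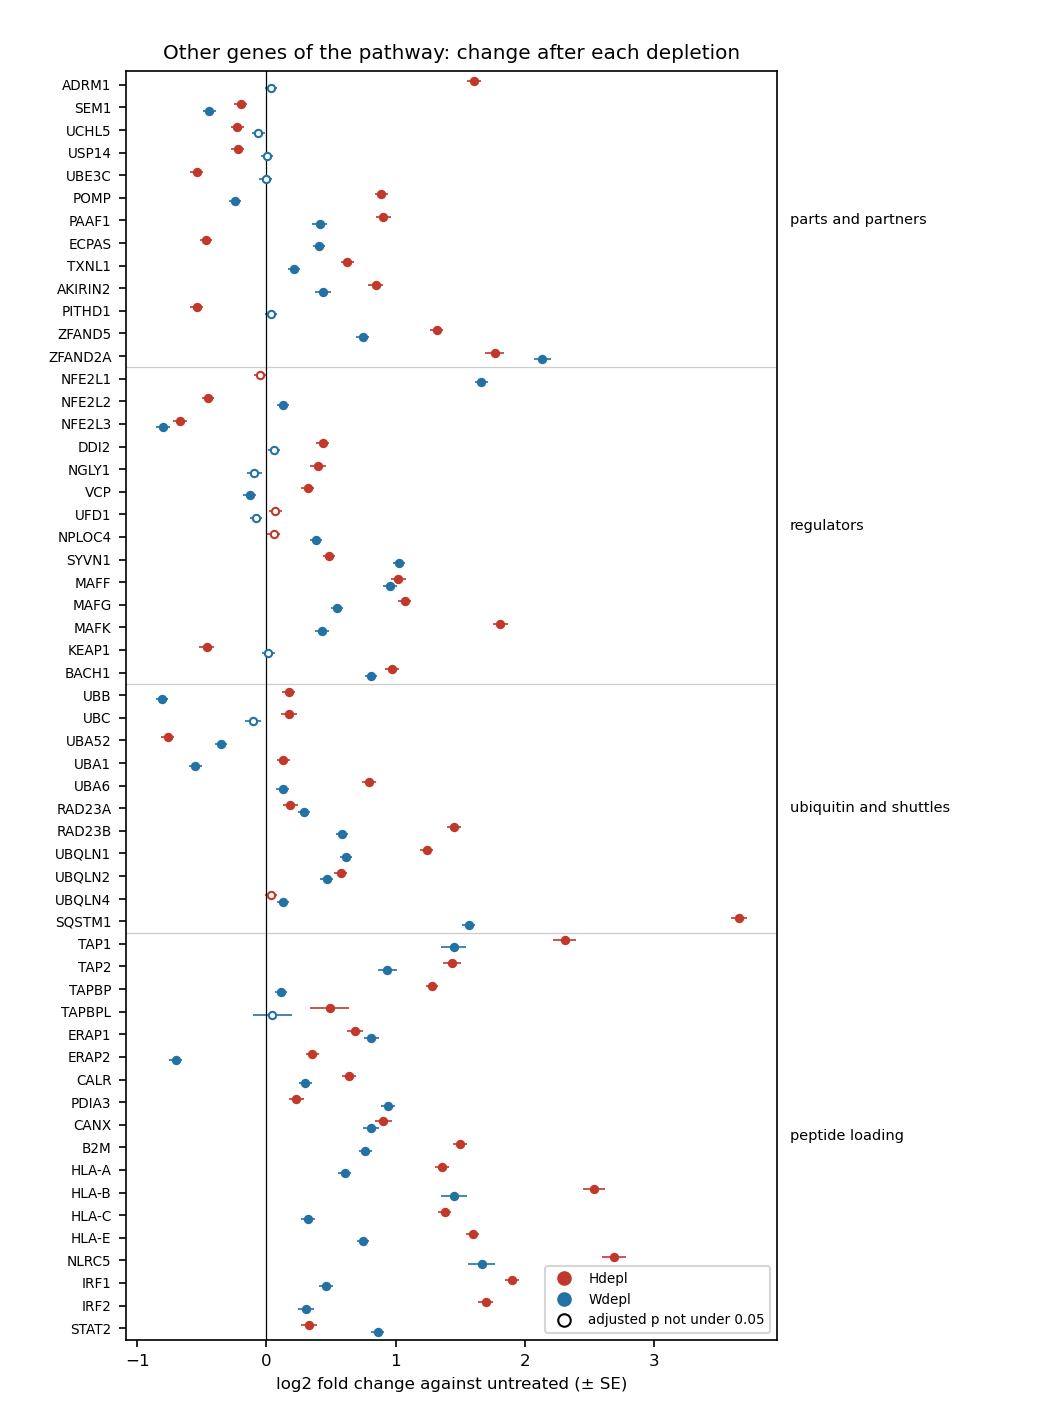
Log2 fold change (± SE, x axis) against untreated cells of 56 other genes of the pathway (y axis, by list) after histidine (red) and tryptophan depletion (blue), 2 libraries per group; filled points passed an adjusted p of 0.05 in limma. All 18 peptide loading genes lie to the right of 0 in Hdepl, SQSTM1 lies farthest to the right, and NFE2L1 stands apart in Wdepl.

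Members held smaller shares of the codons of both depleted amino acids than coding genes at large. Histidine codons (CAC and CAT) made up a median of 1.97% of the codons of members and 2.45% over 19435 coding genes, and tryptophan codons (TGG) 0.54% and 1.15%. Across the 46 tested members, which share libraries and are not independent of each other, Spearman's rho between histidine codon share and log2 fold change was -0.14 in Hdepl and 0.23 in Wdepl, and that between tryptophan codon share and log2 fold change was -0.41 in Hdepl and -0.11 in Wdepl.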

How the data were processed

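Polyadenylated RNA of HT29 cells was sequenced with a stranded protocol and adapters carrying molecular identifiers, with 2 libraries per group. Per the submitters' processing notes and methods, the authors aligned reads to GRCh38 with STAR 2.7.10a, counted them on exons with HTSeq 2.0.5 and normalized with DESeq2. How identifiers, strand and multimapping reads were treated is not given in the sources used here. The authors deposited normalized counts, a never negative signal, in a table per depletion, normalized separately.

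Division by the step of each library recovered whole reads for 100% of values (tolerance 0.001). For the direct comparison these were scaled by size factors over all 6 libraries. Genes with a mean of at least 10 were tested on log2(normalized count + 1), which understates changes of low genes, with limma 3.58.1 in R 4.3.3 (trend, two-sided, Benjamini-Hochberg, threshold 0.05), in a fit of 2 groups within each table and of 3 groups for the direct comparison. The code was tested on simulated data. As alternatives, the pseudocount was set to 0.5 or 8, the filter was dropped or raised to 50, the trend was omitted, values were quantile normalized, recovered reads were tested with DESeq2 1.42.0 or with edgeR 4.0.16 (TMM), the replicate number entered as a block, the libraries in the fit were varied, a log2 fold limit of 0.5 was added and single libraries were left out. Leaving out members of shared coding bases was added after seeing the data.

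Types, coordinates, exon lengths and coding sequences came from gencode release 44, in which 60357 of 60676 identifiers were found. The authors counted on an earlier gencode release, so lengths and shared coding bases may differ from the models counted on. All members may be named. Values in every library are given for the catalytic subunits, activators, tissue-restricted genes and the extremes of each role. In the other lists they are given for some of the named genes only. In the peptide loading list, 1 gene is not reported here. The members and lists were chosen with earlier results of these data known. Tables and plots were made in Python 3.11.15 with numpy 2.4.6, pandas 2.3.3 and matplotlib 3.10.9.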

Additional observations from a re-analysis of the deposited data

Results flagged for a closer look

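Of all genes tested, 39.1% were called higher and 38.2% lower in Hdepl, and 36.1% and 34.8% in Wdepl. How many of them had opposite calls under the depletions is not given here. For 9 of the 46 tested members the depletions had changes of opposite sign, each past the threshold against untreated cells. The difference between Hdepl and Wdepl, tested directly with limma, passed as well. As log2 of Hdepl against Wdepl it was 1.40 for PSMB7, 0.80 for PSMB3, 0.75 for PSMB2, 0.71 for PSMA7, 0.45 for PSMD12 and 0.32 for PSME3, which rose in Hdepl and fell in Wdepl. It was -0.70 for PSMD3, -0.63 for PSMA1 and -0.51 for PSMD14, which fell in Hdepl and rose in Wdepl. Under quantile normalization the Hdepl change of PSMD12 and PSME3 turned sign and that of PSMB2 was no longer called (adjusted p = 0.108). The Wdepl call of PSMD14 was lost in 7 of 14 alternative settings and that of PSME3 in 3. PSMA1 has most of its coding bases in common with another annotated gene. Both depletions share the untreated libraries, and the base media differed between them, so that the missing amino acid and the base medium cannot be told apart.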

How the results depend on the processing

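Of 2024 comparisons of a member's log2 fold change with an alternative, 1935 kept direction and side of the threshold, 29 gained a call, 35 lost it and 25 changed sign. Counts of members called stayed within 1.5 times under every alternative but the fold limit, which left 5 lower in Hdepl against untreated, 2 higher and 5 lower in Wdepl against untreated, and 8 lower in Hdepl against Wdepl. Leaving out a library gave 24 to 29 members higher and 11 to 13 lower in Hdepl, 14 to 19 and 13 to 16 in Wdepl, and 29 in each case and 13 to 16 in the direct comparison. Under quantile normalization, where members shifted by a median of -0.18 in Hdepl, the Hdepl changes became -0.21 for PSMA4, -0.074 for PSMC4, -0.017 for PSMD12, -0.031 for PSME3 and -0.11 for PSMG2, and the Wdepl changes -0.0096 for PSMB5, -0.021 for PSMC3, -0.020 for PSMD5, -0.0075 for PSMD13 and 0.018 for PSMG3. Of these, PSMC4, PSMD12 and PSME3 in Hdepl were called higher without quantile normalization, and PSMA4, PSMC4 and PSMG2 in Hdepl were called lower with it (limma adjusted p = 7.61e-05, 0.0484 and 0.0447). The cause was not tested. The Hdepl change of PSMA2 became -0.017 in edgeR, -0.021 in DESeq2 and -0.0020 in the fit on all 6 libraries. With single libraries left out, changes crossed 0 in Hdepl, from -0.24 to 0.26 for PSMA2, -0.0013 to 0.13 for PSMB8, -0.054 to 0.14 for PSMD10 and -0.025 to 0.12 for PSMG2, in Wdepl, from -0.050 to 0.00044 for PSMA5, -0.0078 to 0.12 for PSMC3, -0.021 to 0.078 for PSMD5, -0.038 to 0.019 for PSME4 and -0.097 to 0.021 for PSMG3, and in the direct comparison, from -0.048 to 0.00025 for PSME1. None of these 10 changes was called with all libraries. With the longest coding transcript as length, ratios for untreated, Hdepl and Wdepl were 0.129, 0.142 and 0.150 for PSMB8 to PSMB5, 0.0114, 0.0310 and 0.0120 for PSMB9 to PSMB6, 0.0538, 0.0476 and 0.0924 for PSMB10 to PSMB7, 4.91, 5.56 and 4.05 for PSME1 to PSME4 and 3.60, 8.87 and 3.83 for PSME2 to PSME4, and the inducible share was 6.02%, 5.43% and 7.64%. For ratios of a pair of genes, another length multiplies every library by the same factor. Same-numbered libraries did not deviate together (correlations of 0.042, 0.002 and -0.041 over 18264 genes), and with the replicate number as a block 26 members were higher and 12 lower in Hdepl, 17 and 15 in Wdepl, and 29 and 16 in the direct comparison. Low counts limit PSMA2, PSMA6, PSMB9 and PSMD9.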
